A study of Caenorhabditis elegans with 3 samples.

Results

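The clustered piRNA regions of chromosome IV were described as 769 candidate regions of DRAP-1 binding. They were all regions of the pooled candidate list, 30000 in all and 3939 on chromosome IV, whose summit lay at 4500 to 7000 kb or at 13500 to 17200 kb of that chromosome. The choice used position alone and no binding value. The other 3170 candidates of chromosome IV served as the comparison.

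The samples were whole Caenorhabditis elegans embryos of mixed stage and mixed sex, labelled with an age of 3 hour and collected by egg bleaching from strain OP700. This strain carries the integrated array wgIs700, a fosmid copy of drap-1 fused at its C-terminal end to TY1, EGFP and 3xFLAG, with an unc-119(+) rescue in an unc-119 (tm4063) background. All 3 libraries, labelled biological replicates 2, 3 and 4, came from this 1 transgenic line and this 1 group, with no second genotype or stage. Chromatin sonicated to 200 to 800 bp was precipitated with an antibody to GFP per the description, while the antibody label of the samples names drap-1. With an antibody to GFP the lists would report the tagged array protein alone; the labels do not settle this. The material was whole embryos, not a single cell type.

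DRAP-1 is the alpha subunit of negative cofactor 2, a histone-fold dimer that binds the TATA-binding protein on DNA and, in yeast and mammals, limits the assembly of transcription complexes. In C. elegans, most piRNAs, also called 21U-RNAs, come from a great many very short independent genes packed into the introns and intergenic DNA of chromosome IV. Each is transcribed in the germ line by RNA polymerase II under an upstream sequence element, with a complex that holds the snRNA activating protein SNPC-4 and PRDE-1. The mature piRNAs load onto the Argonaute PRG-1, which guards the germ line against foreign sequence. Embryos hold few germ cells, so the piRNA genes are studied here in a tissue that is mostly somatic, and fewer cells with a bound site cannot be told apart from less binding per cell.

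Each replicate list and the pooled list held 30000 candidates, ranked by the deposited signal of column 7, and a thresholded list held 1468 of the pooled candidates (4.89% of them), which were the 1468 with the highest signal. These 1468 regions, retained by the irreproducible discovery rate (IDR), are called peaks below. In each replicate, the 1468 regions with the highest signal stood in for peaks. The lists give no read counts, so the sequencing depth behind a region is unknown. The 95% intervals are exact (Clopper-Pearson), cover counting error only, and treat neighbouring regions as separate. The exact two-sided sign-flip permutation test over the 3 replicates cannot go below p = 0.25, so no difference could pass 0.05 and the replicate values are given instead.

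The sequences show the piRNA genes closest to cluster candidates and peaks that are described below, whose summits all lay outside the stretch printed. The first set is the 60 bases before and the 21 bases of each piRNA gene, 5′ to 3′ on the strand of the gene, from the ce11 genome (RefSeq WBcel235). 21ur-252 (chrIV:15474317-15474397, minus), 21ur-12735 (chrIV:14486859-14486939, minus) and 21ur-15423 (chrIV:5602171-5602251, plus) are the piRNA genes under the 3 highest candidates of the piRNA class. 21ur-10250 (chrIV:14872180-14872260, minus), 21ur-7216 (chrIV:5600720-5600800, plus), 21ur-9076 (chrIV:5077658-5077738, minus) and 21ur-7825 (chrIV:14032387-14032467, minus) are the nearest piRNA genes of 4 of the 9 peaks that lay at no 5′ end, with the summits 291, 327, 346 and 373 bp away. The other 5 of these peaks were more than 1000 bp from a piRNA 5′ end. Capitals mark exact matches to CTGTTTCA, the core of the upstream element of clustered piRNA genes. Of the piRNA genes shown, 21ur-7216 alone held an exact match. Near matches were not marked, such as cggtttca in 21ur-15423 and 21ur-10250, ccgtttca in 21ur-7825 and atgtttca in 21ur-9076.
21ur-252: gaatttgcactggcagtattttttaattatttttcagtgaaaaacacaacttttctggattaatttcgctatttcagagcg
21ur-12735: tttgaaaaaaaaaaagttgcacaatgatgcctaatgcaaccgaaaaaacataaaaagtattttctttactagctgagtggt
21ur-15423: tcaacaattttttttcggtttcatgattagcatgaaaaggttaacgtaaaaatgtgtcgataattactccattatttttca
21ur-10250: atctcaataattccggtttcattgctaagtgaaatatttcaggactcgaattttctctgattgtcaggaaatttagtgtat
21ur-7216: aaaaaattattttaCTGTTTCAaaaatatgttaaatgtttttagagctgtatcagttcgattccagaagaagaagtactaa
21ur-9076: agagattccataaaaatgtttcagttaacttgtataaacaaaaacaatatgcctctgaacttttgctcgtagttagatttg
21ur-7825: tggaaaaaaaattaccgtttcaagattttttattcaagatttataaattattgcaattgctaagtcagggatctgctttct

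The second set holds the strongest cluster regions at tRNA genes and at a microRNA gene, shown for contrast. The first line (chrIV:5967029-5967240, plus) runs from the upstream DNA of 21ur-5229 to the end of B0350.t1, a tRNA-Lys gene with a peak. Its first capitals are the 21 bases of the piRNA gene and its last capitals are GTTCGANNC, the core of the internal B box that TFIIIC binds in tRNA genes. C43G2.t1 (tRNA-Leu, chrIV:6556808-6556901, plus) and Y65A5A.t1 (tRNA-Ala, chrIV:16398374-16398455, plus) are shown with the 10 bases before the gene and the same letters in capitals, which the tRNA-Ala gene does not hold. The summit at the tRNA-Ala gene lay 25 bp before the gene, outside the stretch printed. The mir-52 line (chrIV:14033961-14034061, plus strand) is the 50 bases on each side of the summit of the highest cluster region, and holds none of the letters searched.
B0350.t1 and 21ur-5229: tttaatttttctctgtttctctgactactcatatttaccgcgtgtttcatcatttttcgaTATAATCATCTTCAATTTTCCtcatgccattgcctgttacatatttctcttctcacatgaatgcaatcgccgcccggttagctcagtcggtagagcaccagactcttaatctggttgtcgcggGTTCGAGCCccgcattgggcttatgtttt
C43G2.t1: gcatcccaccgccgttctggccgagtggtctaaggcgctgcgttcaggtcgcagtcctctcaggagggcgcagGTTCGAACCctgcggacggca
Y65A5A.t1: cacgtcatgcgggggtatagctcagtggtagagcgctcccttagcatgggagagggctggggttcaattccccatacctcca
mir-52: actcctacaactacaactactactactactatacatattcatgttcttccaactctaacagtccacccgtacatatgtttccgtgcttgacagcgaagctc

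DRAP-1 candidates were sparse in the piRNA clusters. The pooled list held 124.0 candidates per Mb in the 6.2 Mb of the clusters and 280.7 per Mb in the other 11.3 Mb of chromosome IV, a ratio of 0.442. The replicate lists held 139.4, 132.9 and 143.4 candidates per Mb in the clusters against 281.0, 282.2 and 279.5 per Mb outside them. All 3 replicates were lower in the clusters and the 2 sets of values did not overlap; their means were 138.5 ± 5.29 and 280.9 ± 1.33 (SD, n = 3, exact sign-flip p = 0.25).

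The cluster at 4500 to 7000 kb was the richer of the 2. It held 178.8 candidates per Mb in the pooled list against 87.0 per Mb for the cluster at 13500 to 17200 kb. Its left end, from 4500 kb on, was nearly free of piRNA genes. Consecutive 100-kb bins there held 0, 1 and 8 piRNA 5′ ends, with 38, 51 and 41 pooled candidates and 1, 1 and 3 peaks. The density of the first cluster without this stretch was not computed. The replicates gave 175.2, 194.0 and 202.8 per Mb for the first and 115.1, 91.6 and 103.2 per Mb for the second, with no overlap. The size of the difference from the surroundings depended on the DNA compared. Against the DNA between the clusters, at 7000 to 13500 kb, the first cluster stood at a ratio of 0.780, and against the left end of the chromosome, up to 4500 kb, the second stood at 0.241.

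Candidates were fewest where piRNA genes were densest along the chromosome. In 100-kb bins with at most 4 piRNA 5′ ends, the pooled list held 324.3 candidates per Mb. In bins with 5 to 19 it held 190.6, in bins with 20 to 99 it held 140.0, in bins with 100 or more and under 300 it held 144.1, and in bins with 300 or more it held 38.9. The replicates gave 61.1, 57.4 and 66.3 candidates per Mb in the bins with 300 or more piRNA 5′ ends and 327.9, 305.1 and 305.6 per Mb in those with at most 4. GC content and gene density moved with the piRNA count: from the sparsest to the densest bins, GC went from 35.8% to 31.6% and protein-coding genes from 194.8 to 99.5 per Mb. The part of each in the candidate density is taken up below for GC and was not tested for gene density.

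**Figure D1:**
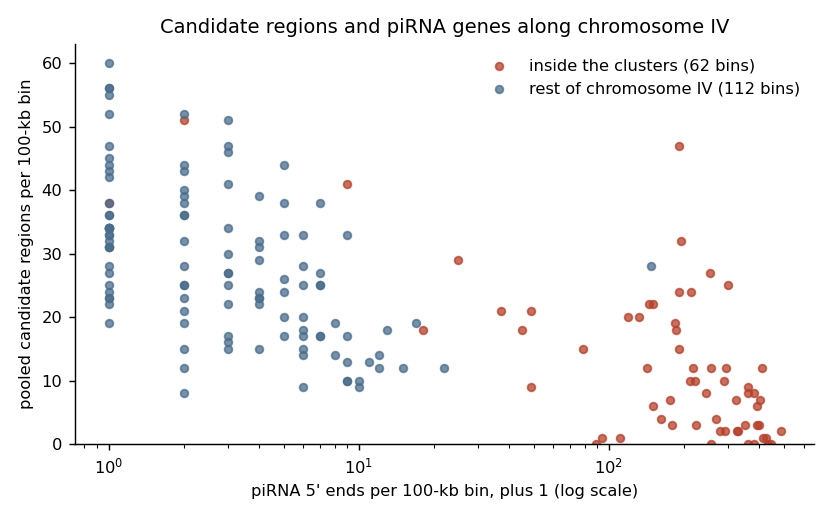
Each point is a 100-kb bin of chromosome IV, placed by its number of piRNA 5′ ends plus 1 (log axis) and its number of pooled candidate regions, with bins inside the clusters in red. Bins with 300 or more piRNA 5′ ends lie near the bottom, at 38.9 candidates per Mb on average, against 324.3 per Mb in bins with at most 4.

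Of the 769 cluster candidates, 50 were peaks, 25 in each cluster. This was 6.50% of the candidates (4.86 to 8.48%), against 131 of 3170 (4.13%, 3.47 to 4.88%) in the rest of chromosome IV and 4.6% over the whole chromosome. In the replicates, the 1468 highest regions made up 5.90%, 6.31% and 7.42% of the cluster candidates and 3.94%, 3.80% and 3.93% of the others, higher in the clusters in 3 of 3 (exact sign-flip p = 0.25). Few candidates in the clusters thus went with a larger share of peaks among them, a difference of 2.37 percentage points. It was smaller when only peaks found among the highest regions of both remaining replicates were counted: 1.37 points without replicate 2, 0.68 without replicate 3 and 0.97 without replicate 4. With the 734 peaks of highest signal alone, the difference was 0.515 points.

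Per Mb, peaks were also fewer in the clusters, by less than the candidates were. The pooled list gave 8.06 peaks per Mb in the clusters and 11.6 per Mb in the rest of chromosome IV. The replicates gave 8.23, 8.39 and 10.6 per Mb in the clusters and 11.1, 10.7 and 11.0 per Mb outside, with replicate 4 close to the outside values. In the first cluster alone, the replicate values of 9.6, 10 and 12.8 per Mb lay on both sides of the outside values (exact sign-flip p = 1). The median candidate of the clusters ranked at the 47.4th percentile of signal in the pooled list, where 0 is the highest signal, against the 54.0th in the rest of the chromosome. The replicate medians were 50.5, 47.7 and 49.3 in the clusters against 53.2, 50.7 and 53.5 outside, a mean difference of -3.30 percentile points.

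The candidates nearest the 4 bounds of the clusters were not peaks. Just inside and just outside 4500 kb, the signals were 32.7 and 36.0. At 7000 kb they were 34.1 inside and 38.7 outside, at 13500 kb 38.3 and 46.2, and at 17200 kb 59.4 and 57.9.

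The piRNA genes themselves were the emptiest sequence in the clusters. The annotation holds 15363 piRNA genes, of which 14714 lie on chromosome IV and 14204 in the clusters. Of those 14204, 29 (0.204%, 0.137 to 0.293%) had a pooled candidate summit within 100 bp of the 5′ end, and none had a peak there, which allows a share of up to 0.0260%. The replicates put a candidate at 56, 39 and 58 of these genes. The share was higher for the piRNA genes on the rest of chromosome IV, 9 of 510 (1.76%), and on other chromosomes, 17 of 649 (2.62%), and it was 0.358% over all piRNA genes. In each of the 3 replicates the order was the same: clusters lowest, at 0.394%, 0.275% and 0.408%, against 2.16%, 2.55% and 1.76% on the rest of the chromosome. These shares count a summit whatever other gene lay there, so they compare unlike sites. Of the 9 pooled candidates within 100 bp on the rest of chromosome IV, 3 lay away from coding and other RNA 5′ ends. In the clusters, 18 of 20 did (coding window 500 bp, other RNA window 100 bp).

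Density was lowest next to the piRNA genes and highest far from them. Bases within 100 bp of a piRNA 5′ end made up 29.8% of the clusters and held 20 of the 769 candidates (2.60%). This was 10.8 candidates per Mb, against 172.1 per Mb for the cluster bases farther away, a ratio of 0.063. The replicates gave 23.8, 15.7 and 23.3 per Mb near the piRNA genes and 188.4, 182.6 and 194.3 per Mb farther away (lower in 3 of 3, exact sign-flip p = 0.25). In steps of distance, the pooled density was 6.71 per Mb at 0 to 50 bp, 16.2 beyond that up to 100 bp, 49.2 up to 250 bp, 121.9 up to 500 bp, 117.2 up to 1000 bp and 293.0 beyond 1000 bp. Beyond 1000 bp, the cluster density was thus close to the 280.7 per Mb of the rest of the chromosome. The median cluster base lay 249 bp from a piRNA 5′ end, the median candidate 3866 bp and the median peak 2146 bp.

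**Figure D2:**
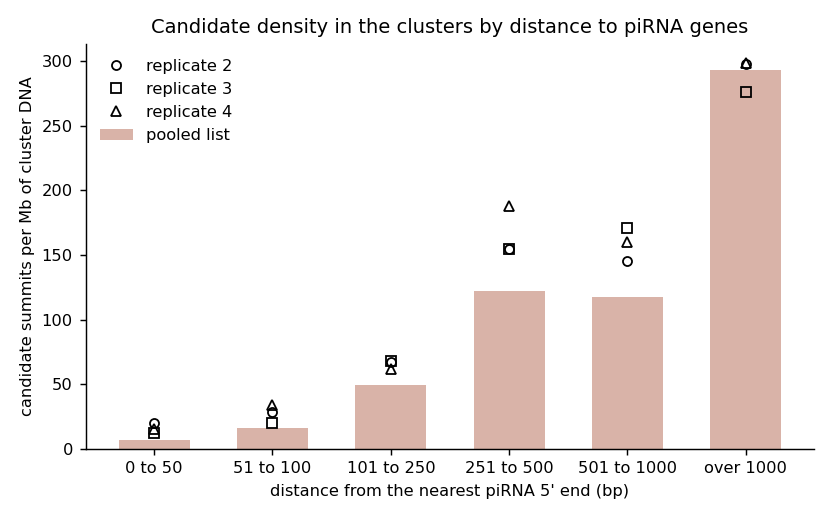
Bars give the pooled candidate summits per Mb of cluster DNA at each distance (bp) from the nearest piRNA 5′ end, and open symbols give the 3 replicates. Every list is lowest at 0 to 50 bp, where the pooled value is 6.71 per Mb, and highest beyond 1000 bp, where it is 293.0 per Mb.

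No peak summit lay within 100 bp of a cluster piRNA 5′ end. Pooled peaks stood at 2.38 per Mb beyond 100 and up to 250 bp (3 peaks) and at 8.22 up to 500 bp (6). They stood at 13.0 up to 1000 bp (7) and 18.6 beyond 1000 bp (34). In the replicates the 2 middle steps had no fixed order, at 13.7, 11.0 and 17.8 per Mb up to 500 bp against 13.0, 14.9 and 16.7 up to 1000 bp. As a share of the pooled candidates, peaks did not rise steadily over these steps, at 4.84%, 6.74%, 11.1% and 6.36%. The nearest of the 50 was 109 bp away, at B0350.t1. Among the highest regions of the replicates, 1 of 51, 0 of 52 and 1 of 66 lay within 100 bp, the nearest at 78, 112 and 97 bp. The whole interval of 2 of the 50 peaks held a piRNA 5′ end, or 0.108 piRNA 5′ ends per kb of peak, against 2.29 per kb over the clusters and 0.328 per kb of the other 719 candidates. The typical interval was 424 bp long in both sets, wider than the 100 bp on each side of a summit, so the interval is the broader of the 2 measures. The regions of 424 bp that are named in the text had their summit at the midpoint.

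Regions were then sorted by what their summit lay on, in this order: within 100 bp of the 5′ end of another RNA gene (tRNA, snoRNA, snRNA, miRNA or other noncoding RNA), within 500 bp of a protein-coding 5′ end, within 100 bp of a piRNA 5′ end, or none of these. In the clusters, 51 candidates fell to the other RNA class, 153 to the coding class, 18 to the piRNA class and 547 to none. The piRNA class was 2.34% of the candidates on 26.9% of the bases. The other RNA class was 6.63% of the candidates on 1.28% of the bases, which made it the densest class, at 640.6 candidates per Mb.

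The peaks of the clusters were shared out among the other 3 classes. They made up 17 of the 51 other RNA candidates (33.3%, 20.8 to 47.9%), 24 of the 153 coding candidates (15.7%, 10.3 to 22.4%), 0 of the 18 piRNA candidates (up to 18.5%) and 9 of the 547 others (1.65%). With so few piRNA candidates, a share like that of the coding class could not be told from 0 in the pooled list. The replicates held 38, 22 and 32 piRNA-class candidates, again with none among the 1468 highest; their best ranks were 2436, 2579 and 3089. When a region was instead given to the nearest 5′ end of any kind within 500 bp, some peaks beyond 100 bp passed to piRNA genes and the piRNA share exceeded that of regions with no 5′ end by 1.34 points, so the absence of peaks holds for the 100-bp window.

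The rest of chromosome IV had the same order of classes at other levels. The other RNA class held 158 candidates and 41 peaks (25.9%), the coding class 698 and 46 (6.59%), the piRNA class 3 and 0, and regions with no 5′ end 2311 and 44 (1.90%). Candidate density was lower in the clusters for each class in 3 of 3 replicates. For bases with no 5′ end, it was 164.3, 164.6 and 173.5 per Mb in the clusters against 257.0, 260.1 and 261.3 per Mb outside, and these cluster bases include those between 100 and 1000 bp from a piRNA 5′ end. Beyond 1000 bp, away from all coding and other RNA 5′ ends, the cluster density was 258.7 per Mb in the pooled list and 260.1, 245.6 and 271.1 per Mb in the replicates, which overlapped the values outside the clusters. For piRNA bases, it was 22.8, 13.2 and 19.2 per Mb against 68.9, 82.7 and 110.3 per Mb.

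**Figure D3:**
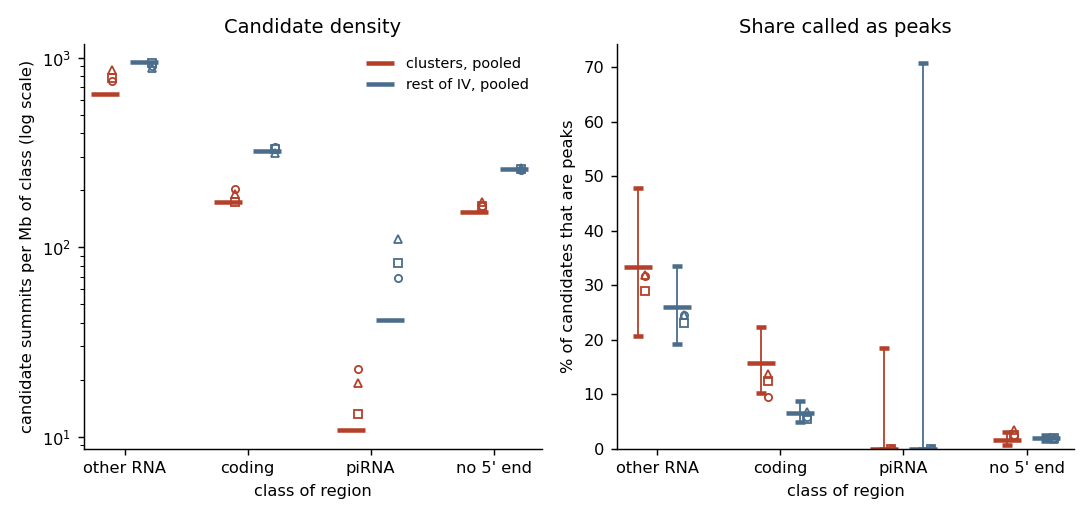
Left, candidate summits per Mb of each class of sequence (log axis) in the clusters (red) and the rest of chromosome IV (blue); right, the share of pooled candidates that were peaks, with exact 95% intervals. Bars are the pooled list and open circles, squares and triangles are replicates 2, 3 and 4; the piRNA class is lowest in density (10.8 per Mb in the clusters) and holds no peak.

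The 18 piRNA-class candidates ranked 8981 or lower in the pooled list. Within 100 bp, 3 had no match in any replicate, 10 had one in 1 replicate, 5 in 2 and 0 in all 3. Among the 538 cluster candidates at no 5′ end that were not peaks, the counts were 77, 238, 170 and 53. The highest of the 18, 89 bp downstream of the 5′ end of 21ur-252, inside the gene Y73F8A.26 (chrIV:15474036-15474459), had a signal of 60.4 and rank 8981. It ranked 3772 in replicate 2 and 8078 in replicate 3 and had no match within 100 bp in replicate 4. The next, at 21ur-12735 (chrIV:14486581-14487004, signal 57.9), was matched in replicate 2 alone. The third, at 21ur-15423 in an exon of the forkhead factor gene fkh-7 (chrIV:5602112-5602535, signal 57.7), was matched in replicates 2 and 3. These 3 summits lay 86 to 93 bp downstream of the piRNA 5′ end, beyond the 21-bp gene. Each summit was the midpoint of a 424-bp region that also held the piRNA gene and the 60 bases before it. The lists therefore do not resolve where in the region the signal lay, relative to the gene or its upstream element.

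Only exact matches to the core of the upstream element were searched, and these did not mark the candidates. A piRNA gene with only a near match was counted as without the core. CTGTTTCA, searched on the strand of the gene in the 60 bases before the 5′ end, was found at 34.8% of cluster piRNA genes, 31.6% of those elsewhere on chromosome IV and 6.78% of those on other chromosomes. Its first base lay at a median of 46 bp before the piRNA, the usual spacing of this element. Of the 4944 cluster piRNA genes with it, 12 (0.243%) had a candidate within 100 bp, and of the 9260 without it 17 (0.184%) had one, with overlapping intervals of 0.125 to 0.424% and 0.107 to 0.294%. In windows of 50 bp on each side, searched on both strands, 3 of 769 cluster summits (0.390%) and 0 of 50 peaks held the letters. Summits elsewhere gave much the same share: 11 of 3170 (0.347%) and 0 of 131 peaks in the rest of chromosome IV. Over all 30000 candidates it was 0.41%. Of windows tiled over the clusters 7.34% held the letters, and of those tiled over the rest of chromosome IV 0.762%. The tiled windows were not matched to the summits for GC or for distance from piRNA genes.

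GC content differed between these kinds of sequence. Windows of 150 bp on each side of cluster piRNA 5′ ends had a median GC of 27.9%, those around cluster candidates 42.9% and those around the candidates of the rest of the chromosome 42.2%. The 1-kb tiles of the clusters with a piRNA 5′ end had a median GC of 30.4%, those without one 36.2% and those of the rest of chromosome IV 35.1%. Cluster tiles without a piRNA 5′ end held 253.0 candidates per Mb, and tiles with one held 44.6 per Mb.

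Compared at like GC, the size of the difference depended on GC. Tiles under 30% GC, which were 45.2% of the cluster tiles with a piRNA 5′ end, held 3 candidates (1.73 per Mb), against 7 (26.6 per Mb) in cluster tiles without one and 34.8 per Mb outside the clusters. The replicates gave 6.35, 7.51 and 8.66 against 57.0, 22.8 and 15.2 per Mb, lower with a piRNA 5′ end in 3 of 3. In tiles of 30 to 35% GC, the pooled list held 43.5 candidates per Mb with a piRNA 5′ end, 112.7 per Mb in cluster tiles without one and 131.7 per Mb outside the clusters. In tiles of 35 to 40% the values were 152.4, 314.0 and 350.1 per Mb, and in both ranges all 3 replicates had the tiles with a piRNA 5′ end lowest. At 40% or more, the replicates gave 437.5, 385.4 and 447.9 per Mb with a piRNA 5′ end and 430.3, 423.4 and 447.5 without, which overlapped, while the rest of the chromosome stood at 587.8, 586.7 and 584.5. Over the tiles of at least 35% GC, the ratio of candidate density within 100 bp of piRNA 5′ ends to that farther away was 0.212 in the pooled list, in place of 0.063 over all cluster bases. In the replicates it was 0.367, 0.249 and 0.317, in place of 0.126, 0.086 and 0.120. These ratios rest on few tiles with a piRNA 5′ end, 420 at 35 to 40% GC and 96 above. How well short, AT-rich sequence is covered by reads was not tested, since the lists hold no coverage.

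**Figure D4:**
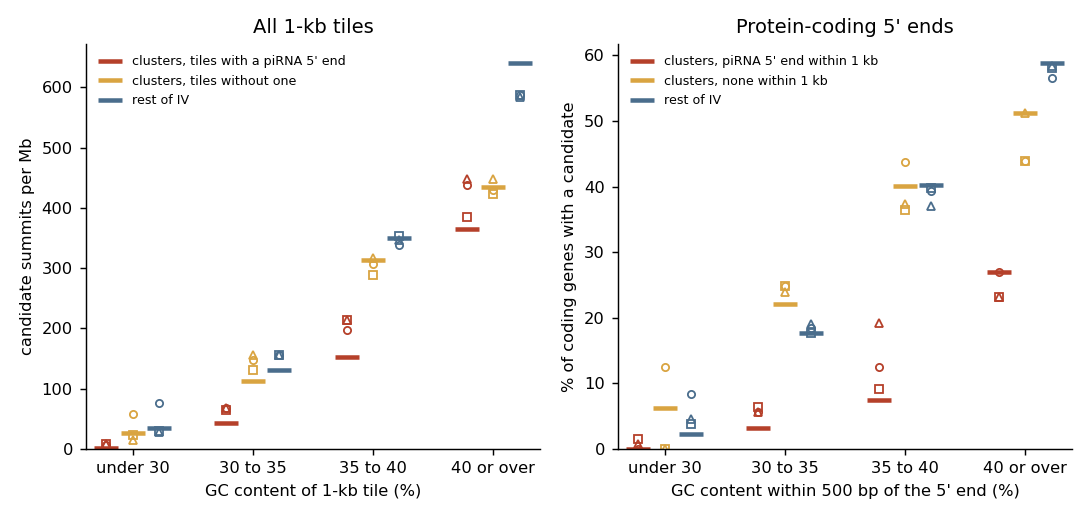
Left, candidate summits per Mb in 1-kb tiles grouped by GC (%); right, the share of protein-coding genes with a candidate within 500 bp of the 5′ end, grouped by GC there; bars are the pooled list and open circles, squares and triangles are replicates 2, 3 and 4. Sequence near piRNA genes (red) is lowest at 30 to 40% GC in both panels, at 152.4 per Mb and 7.50% in the 35 to 40% group of the pooled list.

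Protein-coding genes inside the clusters differed by whether a piRNA gene was close. Of the 941 cluster genes, 158 (16.8%) had a candidate within 500 bp of the 5′ end, against 714 of 2340 (30.5%) in the rest of chromosome IV and 31.3% of all protein-coding genes. The share with a peak was close to that elsewhere: 35 of 941 (3.72%) against 82 of 2340 (3.50%), with 3.75% over all protein-coding genes. The replicates had a peak at 2.98%, 3.08% and 3.93% of cluster genes and at 2.99%, 2.74% and 3.16% of the others, which overlapped.

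The 558 cluster genes with a piRNA 5′ end within 1 kb of their own held few of these. Of them, 25 (4.48%) had a candidate and 4 (0.717%, 0.196 to 1.83%) a peak. Of the 383 cluster genes with no piRNA 5′ end within 1 kb, 133 (34.7%) had a candidate and 31 (8.09%, 5.57 to 11.3%) a peak. In the replicates, peaks stood at 0.896%, 0.896% and 0.717% of the genes near piRNA genes and 6.01%, 6.27% and 8.62% of those away from them (lower in 3 of 3, exact sign-flip p = 0.25). The difference of -7.38 percentage points became -4.95, -3.82 and -3.38 without replicates 2, 3 and 4 in turn, counting peaks found in both others. The genes near piRNA genes had a median GC of 32.5% around the 5′ end and the others 36.6%. Among genes with at least 35% GC there, peaks stood at 3 of 146 (2.05%) near piRNA genes, 26 of 258 (10.1%) away from them and 76 of 1199 (6.34%) in the rest of chromosome IV.

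Candidates at coding genes were more often peaks in the clusters. Of the 161 cluster candidates within 500 bp of a protein-coding 5′ end, 27 (16.8%, 11.4 to 23.5%) were peaks, against 57 of 737 (7.73%, 5.91 to 9.90%) in the rest of chromosome IV. The replicates gave 11.3%, 13.6% and 15.9% against 6.67%, 6.00% and 7.50%, with no overlap (exact sign-flip p = 0.25). The difference of 9.04 points was 6.35, 4.35 and 4.28 without replicates 2, 3 and 4 in turn, 5.54 with a window of 1000 bp, and 3.52 for the 734 peaks of highest signal.

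The coding-class peaks sat upstream of their genes, at a median of 180 bp before the 5′ end, and 22 of 24 lay upstream. The highest was 173 bp upstream of Y17G9B.5 (chrIV:4749939-4750194), which encodes a mitochondrial protein related to the Toll pathway signaling intermediate ECSIT. Its signal was 458.1, rank 103, and its ranks in replicates 2, 3 and 4 were 76, 160 and 88. The peak 184 bp upstream of snx-13 (chrIV:17087532-17087729), a sorting nexin gene, had a signal of 340.7 and ranks of 85, 310 and 361. The peak 432 bp upstream of lin-66 (chrIV:13887435-13887858), a regulator of developmental timing, had a signal of 282.1 and ranks of 272 and 289 in replicates 3 and 4, and no match within 100 bp in replicate 2. A weaker candidate at lin-66, with its summit at 13887852 and a signal of 65.1, was matched at rank 384 in that replicate. F29B9.11, which encodes a cytochrome c oxidase subunit, had a signal of 263.4 and ranks of 297, 497 and 413. W03F8.4, which encodes a subunit of the KEOPS complex for tRNA modification, had a signal of 247.4 and ranks of 449, 532 and 378. Of these 5, lin-66 alone lay within 1 kb of a piRNA 5′ end, at 774 bp. The peaks of Y17G9B.5 and F29B9.11 lay in the left end of the first cluster, 17657 and 30265 bp from a piRNA 5′ end.

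Some of the other coding peaks are named here, chosen after their values were seen. They included sqd-1, which encodes an RNA-binding protein (signal 231.6), the linker histone gene hil-7 with 2 peaks (210.6 and 138.8), zen-4, the kinesin of the central spindle (156.9), sec-61.A of the endoplasmic reticulum translocon (161.4) and ntl-11 of the CCR4-NOT deadenylase complex (158.8). gtsf-1, which encodes a small zinc finger protein of small RNA pathways, had a peak 127 bp upstream with a signal of 216.3 and ranks of 548, 846 and 362. A peak at chrIV:15646495-15646918 lay upstream of a gene annotated as a transposase (161.7), with no match in replicate 4.

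Among the 17 peaks at other RNA genes, 7 had a tRNA gene as the nearest, 8 an unclassified noncoding RNA gene, 1 a miRNA gene and 1 a snoRNA gene. Counting any tRNA gene within 100 bp, 8 of the 50 peaks (16%, 7.17 to 29.1%) lay at one, against 13 of 131 (9.92%, 5.39 to 16.4%) in the rest of chromosome IV. The highest of all cluster regions was at mir-52 (chrIV:14033437-14034403), a gene of the mir-51 family of microRNAs, which is essential for embryo development. Its summit lay 3 bp into the annotated precursor, its signal was 634.6 and its pooled rank 36, and it ranked 13, 88 and 49 in the replicates. The nearest piRNA 5′ end was 1190 bp away. The peak at Y7A9D.66 (chrIV:16382171-16382594, signal 321.8, ranks 192, 279 and 254) lay 19 bp upstream of a noncoding RNA of unknown role and 300 bp from a piRNA 5′ end. Its summit also lay 168 bp upstream of the coding gene spig-12. The same region held the tRNA-Val gene Y7A9D.t3 (chrIV:16382431-16382503, minus), so these genes share the peak.

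At tRNA genes, peaks occurred beside piRNA genes and away from them. Of the 31 cluster tRNA genes with a piRNA 5′ end within 1 kb, 4 (12.9%, 3.63 to 29.8%) had a candidate and the same number a peak. Of the 10 with none, 6 (60%, 26.2 to 87.8%) had a candidate and 4 (40%, 12.2 to 73.8%) a peak. The replicates had a peak at 12.9%, 29.0% and 25.8% of the first and 40%, 30% and 60% of the second, lower in 3 of 3 but nearly equal in replicate 3, and the intervals of the pooled peak shares overlapped. The replicates had a candidate at 19.4%, 32.3% and 32.3% of the first and 50%, 70% and 80% of the second. The peak of B0350.t1 (chrIV:5967049-5967291), printed above, lay 38 bp into the tRNA gene, with a signal of 437.1 and ranks of 103, 139 and 144. The piRNA gene 21ur-5229, at chrIV:5967089-5967109, lay under the left side of the same region, and its 5′ end was 109 bp from the summit. C43G2.t1 had a signal of 257.0 and ranks of 807, 305 and 266, and Y65A5A.t1 had 234.9 and ranks of 1220, 411 and 228. The B box core was found within 50 bp of 2 of the 17 other RNA summits, against 0.529% of windows tiled over the clusters. The B box is part of tRNA genes, which were nearest to 7 of these 17 summits. A share above the tiled windows therefore follows from how the class was set. TATAAA was found at none of the 50 peak summits, 30 of 769 candidate summits (3.90%) and 13.7% of the tiled windows. These windows differ in GC, and the counts were not matched for it. Median GC was 43.2% within 150 bp of cluster peak summits and 42.9% for cluster candidates, against 32.1% in 1-kb tiles of the clusters.

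Of the 41 tRNA genes in the clusters, 10 (24.4%) had a pooled candidate within 100 bp and 8 (19.5%) a peak. On the rest of chromosome IV, 21 of 30 (70.0%) had a candidate and 13 (43.3%) a peak, and over all tRNA genes the shares were 57% and 33.8%. The replicates had a candidate at 26.8%, 41.5% and 43.9% of cluster tRNA genes against 60%, 66.7% and 66.7% outside. Of the 41 cluster genes, 35 have at least 1 identical copy elsewhere, so reads from the copies cannot be told apart by the gene itself. All 10 with a pooled candidate were among those 35, and none of the 6 with a sequence of their own had one. Of these 6, Y51H4A.t4 had a candidate in replicate 4 alone, at rank 385. In the rest of chromosome IV, 8 of 10 tRNA genes with a sequence of their own (80%) and 13 of 20 with copies (65%) had a pooled candidate.

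The pooled list lacked cluster regions that were strong in the replicates. Of the 51, 52 and 66 cluster regions among the highest of replicates 2, 3 and 4, 7 (13.7%), 7 (13.46%) and 13 (19.7%) had no pooled candidate within 500 bp. In the rest of chromosome IV this held for 0 of 125, 2 of 121 (1.65%) and 6 of 124 (4.84%), and over all chromosomes for 3.34%, 2.52% and 4.02%. These cluster regions formed 17 places when summits within 150 bp were joined, of which 3 were among the highest of all 3 replicates and 4 of 2. The place at chrIV:14838373 ranked 256, 241 and 212 in the replicates, 354 bp upstream of the 5′ end of 21ur-10291, with no pooled candidate closer than 12129 bp. Another, at 6481212, lay in the tRNA-Val gene Y73B6BL.t1 and ranked 839, 809 and 1357, and 7 of the 17 lay within 100 bp of a tRNA 5′ end. A piRNA 5′ end lay within 500 bp of 9 of the 17 and within 1 kb of 13, the nearest at 114 bp. In the clusters the pooled list held 50 peaks, against 51, 52 and 66 highest regions in the replicates. It held 769 candidates there, against 864, 824 and 889. How much of these gaps the missing places make up was not computed, and the cause of their absence was not tested.

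The cluster peaks were found again in the replicates about as often as the other peaks of chromosome IV. Replicates 2, 3 and 4 held 32 (64.0%), 36 (72.0%) and 36 (72.0%) of the 50 among their 1468 highest regions, against 68.7%, 68.7% and 67.2% of the 131 outside. The 2 sets of shares overlapped. All 3 replicates held 17 of the 50 (34.0%, 21.2 to 48.8%) and 52 of the 131 (39.7%), with 43% over all peaks; 20 of the 50 were held by 2 replicates and 13 by 1. The peaks repeated in every replicate were mostly those of highest pooled signal, as the plot of their ranks shows. The pooled signal derives from the alignments of these same 3 replicates, so this follows largely from how it was made. Recovery in the replicates is thus not independent of the peak list.

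**Figure D5:**
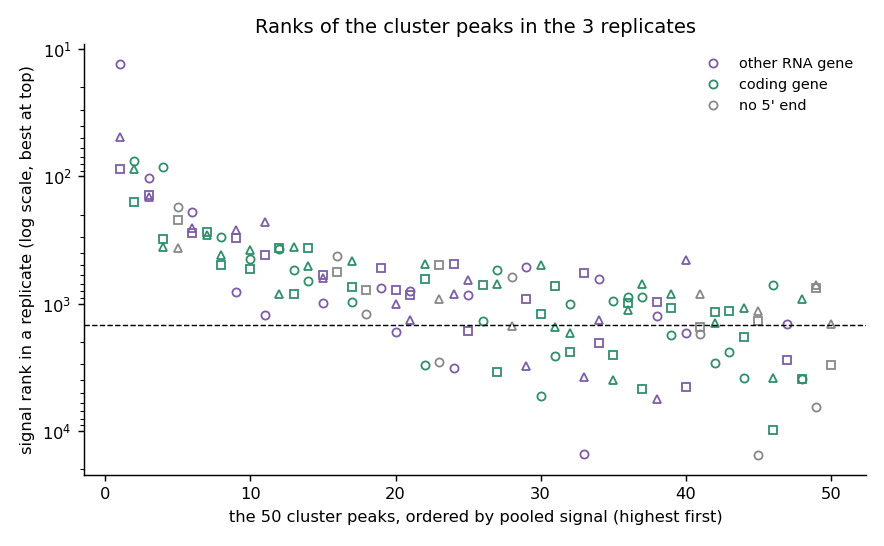
Signal rank of each of the 50 cluster peaks in replicate 2 (circles), 3 (squares) and 4 (triangles) on a log axis, with the best rank at the top, ordered by pooled signal and coloured by class; the dashed line is rank 1468. The first peak, at mir-52, ranks 13, 88 and 49, no peak is of the piRNA class, and points without a match within 100 bp are not drawn.

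Away from all 5′ ends, 9 cluster regions were peaks. The highest (chrIV:6756547-6756763, signal 332.8; ranks 175, 221 and 367) lay outside coding genes, 2470 bp from a piRNA 5′ end. 2 of the 9 lay in introns, of lag-1, which encodes the DNA-binding effector of Notch signaling (signal 193.0), and of fkh-7 (126.7, 327 bp from 21ur-7216). In all, 43 of the 50 cluster peaks lay outside coding genes, 5 in introns and 2 in exons, while candidates were denser in exons, at 235.5 per Mb, than in introns (117.3) or outside genes (83.5). piRNA 5′ ends stood at 0.341 per kb in the exons, 2.67 per kb in the introns and 2.85 per kb outside genes. GC was 40.5%, 30.5% and 31.4% in the same order. In the rest of chromosome IV, exons were also densest in candidates, at 354.0 per Mb against 234.6 in introns and 261.6 outside genes. piRNA 5′ ends stood there at 0.0276, 0.0436 and 0.0623 per kb.

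The genes that make and use piRNAs, wherever they lie, were looked up as well. A list of 29 such genes had 28 in the annotation. Of these, 6 (21.4%) had a candidate within 500 bp of the 5′ end, against 31.3% of all protein-coding genes, and 0 had a peak, against 3.75%, so about 1 would be the count at the background share and a count of 0 is near it. The 6 were tofu-1, a gene needed for piRNA precursors (signal 110.2; ranks 11691, 2708 and 1187), pid-2 (73.9; ranks 21950, 20974 and 1331), snpc-3.4, which encodes a subunit of the snRNA activating complex (63.3), the nuclear Argonaute gene hrde-1 (50.1), prg-1 (50.02), and tofu-5 (35.9). In replicate 4 alone, tofu-1 and pid-2 were among the 1468 highest regions. prde-1 and snpc-4, whose products bind the piRNA clusters, had no pooled candidate. In the replicate lists, snpc-4 had a candidate at rank 17107 in replicate 3 and 14915 in replicate 4, and prde-1 at rank 25088 in replicate 4.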

How the data were processed

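The authors deposited, for DRAP-1 GFP ChIP-seq of 3 libraries, a list of candidate regions per replicate and for the pooled replicates, and an IDR-thresholded list, with coordinates in ce11 per the labels. Per the deposited notes, the lists derive from alignments and 2 control files; which peak caller and IDR threshold were used is not given in the sources used here. Column 7 is the authors' signal per region, used by rank within a list, and column 9 is the deposited −log10 q-value, which was read and not used for any result.

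Gene 5′ ends came from Ensembl release 115 (WBcel235, the same assembly), and sequences from RefSeq WBcel235; 46881 of 46890 genes were paired with RefSeq names. Summits were assigned with Python 3.11.15, pandas 2.3.3, NumPy 2.4.6 and SciPy 1.17.1, and the functions were tested on simulated data. A region was found again where a summit lay within 100 bp. Comparisons used the exact sign-flip permutation test over libraries; intervals are exact binomial. The members and gene lists were chosen with earlier results of these data known. The text names the 10 cluster regions of highest signal, the 5 highest each of the coding and other RNA classes, the 3 highest piRNA-class candidates and the regions at the 4 bounds. Alternatives covered cluster bounds, windows, the 734 peaks of highest signal and each replicate left out; tile GC, motif letters other than the piRNA element, the 1-kb piRNA split and regions without a pooled candidate were added after seeing the data.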

Additional observations from a re-analysis of the deposited data

How the results depend on the processing

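The ratio of candidate density in the clusters to the rest of chromosome IV was 0.442 in the pooled list. It was 0.386 with clusters set as 100-kb bins of at least 20 piRNA 5′ ends. Against position-matched DNA it was 0.780 and 0.241 for the first and second cluster. As the mean of replicate lists it was 0.493, and that mean was 0.484 to 0.504 with each replicate left out. The peak density ratio (0.695) was 0.558 for the 734 peaks of highest signal and 0.588 to 0.723 without each replicate. For peaks, leaving out a replicate meant counting the pooled peaks held by both others. The difference in peak share (2.37 points) was 1.46 and 3.63 for each cluster alone, 1.56 against other chromosomes, 0.515 for those 734 and 0.680 to 1.37 without each replicate. The median rank difference was -6.61 in the pooled list and -4.61 there for the second cluster. As the mean of replicate lists it was -3.30, and that mean was -3.61 to -2.84 with each replicate left out. The piRNA class minus regions with no 5′ end (-1.65 points) was -2.59 with 250-bp coding and RNA windows, -0.548 for those 734, -0.731 to -0.183 without each replicate, and reversed to 1.34 with the nearest 5′ end within 500 bp. The coding difference (9.04 points) was 5.54 at 1000 bp, 3.52 for those 734 and 4.28 to 6.35 without each replicate. The share of summits with an exact match to the piRNA element core (0.390%) was 1.82% with 100 bp on each side. The density ratio near piRNA 5′ ends, 0.063 in the pooled list, was 0.119 there at 250 bp and 0.212 in tiles of at least 35% GC. As the mean of replicate lists it was 0.111, and that mean was 0.103 to 0.123 with each replicate left out. The peak difference of coding genes near piRNA genes (-7.38 points) was -2.86 for those 734 and -4.95 to -3.38 without each replicate. The difference in replicate recovery (1.14 points) was -1.29 at 50 bp, -3.65 among 2 times as many regions and -0.702 to 4.06 without each replicate, so it had no stable sign. Counting peaks held by both remaining replicates leaves 744 to 827 of 1468 peaks, which by construction lowers differences between shares; other causes were not tested. The sign-flip tests pair values within each library; there is 1 group, so replicate numbers pair no samples across groups. Depth is unknown, and 18 piRNA-class candidates limit that share.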

Other observations

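Outside the clusters, 3 of the 649 piRNA genes on other chromosomes (0.462%, 0.0954 to 1.34%) had a peak summit within 100 bp. Summits that also lay at coding or other RNA 5′ ends were not set apart in this count. In replicates 2, 3 and 4, 0, 2 and 2 of them did. The 510 piRNA genes of chromosome IV outside the clusters had none in any list.

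Unclassified noncoding RNA genes of the clusters had a candidate within 100 bp at 44 of 336 (13.1%) and a peak at 11 (3.27%), against 137 of 771 (17.8%) and 22 (2.85%) in the rest of chromosome IV. With a piRNA 5′ end within 1 kb, 19 of 225 (8.44%) had a candidate and 8 (3.56%) a peak, and with none within 1 kb, 25 of 111 (22.5%) and 3 (2.70%). The peak shares of these genes near and away from piRNA genes had overlapping exact intervals, of 1.55 to 6.89% and 0.561 to 7.70%.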
